A study of Mus musculus with 10 samples.

Results

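The 7 genes described here are the ligands of the CSF1 receptor, Csf1 and Il34, that receptor itself, Csf1r, and the receptor chains for the other colony stimulating factors, Csf2ra, Csf2rb, Csf2rb2 and Csf3r. They were taken by symbol from the count data of a mouse study, and all 7 were found among 24421 symbols and passed the filter on low counts that left 18727 genes for testing. RNA was measured in cells labelled microglia, prepared from the cortex by papain digestion and an Optiprep gradient, from mice aged 9 months. There were 3 libraries from wild type mice (WT), 4 from mice carrying mutant human APP (hAPP695swe) and presenilin-1 transgenes (APP/PS1), and 3 from APP/PS1 mice given N-acetyl sphingosine (N-AS) under the skin daily at 30 mg/kg for 8 weeks from 7 months of age (APP/PS1+N-AS). By the study's account each library pools a pair of mice, and libraries are the replicates here. The labels name no vehicle, whereas the study's text describes the APP/PS1 mice set against N-AS as given vehicle. Both transgenes are carried by the N-AS group as by the other APP/PS1 mice.

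Colony stimulating factor 1 and interleukin 34 bind the same receptor tyrosine kinase, on which microglia depend for survival and proliferation. In the brain interleukin 34 is made largely by neurons and colony stimulating factor 1 largely by glia. The receptors for granulocyte-macrophage and granulocyte colony stimulating factors are of another class, have no kinase of their own and signal through JAK kinases and STAT factors in myeloid cells.

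The total count was 8805804, 17102559 and 19133654 in WT replicates 1 to 3. It was 12971720, 12474941, 13129332 and 19432075 in APP/PS1 replicates 1 to 4, and 16500725, 19035817 and 12755933 in APP/PS1+N-AS replicates 1 to 3. The members were counted with between 65 reads (Csf2rb in WT) and 10187 reads (Csf1r in APP/PS1) in a library, so all were detected in all 10 libraries, Csf2rb and Il34 with the least precision. In GENCODE M21 (GRCm38), Csf1 lies at chr3:107741048-107760469 (minus strand), Il34 at chr8:110741829-110805924 (minus strand), Csf1r at chr18:61100598-61132149 (plus strand), Csf2ra at chr19:61223957-61228429 (minus strand) and Csf3r at chr4:126024550-126044440 (plus strand). Levels are normalised read counts (CPM), with library sizes scaled by TMM factors. Libraries numbered 1 to 6 in the labels are replicates 1 and 2 of each group, and those numbered 7 to 10 are the others. Among all symbols, 606 were at 0 in WT replicate 1, 877 to 1777 in the libraries numbered 7 to 10, and 2981 to 4025 in the libraries numbered 2 to 6, so WT replicate 1 had the lowest total count and the fewest genes at 0. Whether the libraries were prepared in batches is not given in the sources used here.

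Markers of microglia were present in each library, and so were markers of other brain cells. The 14 microglial markers, of which Ctss had the highest mean CPM over the 10 libraries, summed to 895, 1045 and 1326 CPM in WT replicates 1 to 3, to 3003, 3195, 4181 and 3814 CPM in APP/PS1 replicates 1 to 4, and to 2259, 2434 and 1832 CPM in APP/PS1+N-AS replicates 1 to 3. None of the 14 was at 0 in any library. The 10 neuronal markers, with Camk2a highest by its mean over libraries, summed to between 3119 and 6319 CPM, and the 10 astrocyte markers, with Slc1a2 highest by its mean, to between 2292 and 3983 CPM, again with none at 0, and none of 10 oligodendrocyte markers was at 0. The libraries therefore also hold RNA of neurons and other glia, and a level below is a level in this mixture. More cells of a type and more RNA per cell cannot be told apart in such libraries.

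Sex-linked genes did not follow the description of the animals, which the study gives as male only. Xist, the RNA of the inactive X chromosome, was at 4.40, 2.29 and 1.59 CPM in WT, at 453, 482, 579 and 533 CPM in APP/PS1, and at 463, 469 and 2.14 CPM in APP/PS1+N-AS. Ddx3y, on the Y chromosome, was at 70.1, 73.2 and 69.0 CPM in WT, at 17.5, 26.8, 0.478 and 0.476 CPM in APP/PS1, and at 13.6, 19.0 and 73.4 CPM in APP/PS1+N-AS. All 4 APP/PS1 libraries and APP/PS1+N-AS replicates 1 and 2 were thus high in Xist, and the WT libraries and APP/PS1+N-AS replicate 3 were not. In the comparison of APP/PS1 with WT, genotype and Xist level cannot be told apart. APP/PS1 replicates 1 and 2 and APP/PS1+N-AS replicates 1 and 2 held both RNAs. APP/PS1+N-AS replicate 3 stood apart from its group, and the log2 differences of Csf1, Csf1r, Csf2rb and Csf3r in that group are also given without it.

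The first comparison sets the receptors and ligands in APP/PS1 beside those in WT. Of the 7 members, 4 were called higher in APP/PS1 than in WT at an adjusted p under 0.05 and 0 lower. Over all genes tested, 3.47% (649) were called in either direction and 2.67% were called higher. The 4 were a ligand (Csf1), its receptor (Csf1r), the common beta chain (Csf2rb) and the receptor for granulocyte colony stimulating factor (Csf3r). The same 4 had no overlap between the groups, against 14.9% of all genes tested. At an unadjusted p under 0.05 the count was 5 of 7, against 17.2% of all genes, the fifth being Il34 in the lower direction. DESeq2 called 1362 genes, and edgeR with the set of library numbers as covariate 1055. By edgeR without a covariate, the count of all genes called was 430 without APP/PS1 replicate 2, 299 without APP/PS1 replicate 3 or replicate 4, 319 without WT replicate 1 and 362 without WT replicate 2, and the count of members was 3 or 4.

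Csf1, the ligand made mainly by glia, was at 27.3, 31.9 and 16.1 CPM in WT, at 63.5, 71.7, 71.7 and 81.9 CPM in APP/PS1, and at 48.7, 56.0 and 31.0 CPM in APP/PS1+N-AS. Every APP/PS1 library was above every WT library, and APP/PS1+N-AS replicate 3 lay just below the highest WT library. The mean was 25.1 ± 8.18 CPM (SD, n = 3) for WT, 72.2 ± 7.54 CPM (SD, n = 4) for APP/PS1, and 45.2 ± 12.9 CPM (SD, n = 3) for APP/PS1+N-AS. Against WT, Csf1 rose in APP/PS1 by 1.53 on the log2 scale (SE 0.26, adjusted p = 0.00953). The study names Csf1 among genes high in APP/PS1, from these same libraries, so this call is not independent evidence. Among the libraries numbered 1 to 6 its log2 difference was 1.19, and among those numbered 7 to 10, with 1 WT library, 2.25.

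Il34, the ligand made mainly by neurons, was at 12.1, 9.10 and 13.5 CPM in WT, at 9.23, 9.42, 7.72 and 9.28 CPM in APP/PS1, and at 9.55, 10.1 and 11.2 CPM in APP/PS1+N-AS. WT replicate 2 lay within the APP/PS1 range and the other WT libraries above it. The log2 difference between APP/PS1 and WT was −0.38 (SE 0.16) and did not pass the test (adjusted p = 0.265). The highest Il34 value was in WT replicate 3, the library in which the neuronal markers summed to 6319 CPM, against 3119 and 3144 CPM in the other WT libraries. However, WT replicate 1 had the next highest Il34 value and, at 3119 CPM, the lowest neuronal sum of all libraries. Camk2a was at its lowest, 1172 CPM, in WT replicate 3. The part of neuronal RNA in the level of Il34 was not tested. Antisense genes overlap Il34 on the other strand, and although the libraries were made with a stranded kit, whether the counting used the strand is not given in the sources used here.

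The levels of the ligands can be compared within each library as the log2 ratio of Csf1 to Il34, from CPM with a prior count of 2. It was 1.16, 1.80 and 0.24 in WT, 2.76, 2.91, 3.19 and 3.12 in APP/PS1, and 2.33, 2.45 and 1.45 in APP/PS1+N-AS. All APP/PS1 libraries were above all libraries of both other groups, and the treated group overlapped WT. The ratio was higher in APP/PS1 than in WT by 1.93 on the log2 scale (two-sided exact permutation test, p = 0.0286, adjusted over 3 comparisons p = 0.0429). Between APP/PS1+N-AS and APP/PS1 it differed by −0.92, the treated libraries being lower (same exact permutation test, p = 0.0286, adjusted p = 0.0429). Both p-values are the smallest that 4 against 3 libraries allow. With each of the 10 libraries left out in turn, the adjusted p of the exact permutation test was between 0.0857 and 0.15 for both. Where the library belonged to the groups compared, fewer arrangements remained, and where it did not, the difference stayed the same and the adjustment over the 3 comparisons alone ended the call. Without APP/PS1+N-AS replicate 3 the second difference was −0.61. No pairing of libraries is given in the sources used here. Same-numbered libraries of APP/PS1+N-AS and APP/PS1 correlated at 0.142 to 0.309 after group means were removed, and the permutation takes no account of this. Over the 3 same-numbered pairs the mean difference was −0.88, lower in 3 of 3, and the call was lost (exact paired permutation test, p = 0.25, the smallest that 3 pairs allow). Among the libraries numbered 1 to 6 the differences were 1.36 and −0.44, and among those numbered 7 to 10, with 1 WT and 1 treated library, they were 2.92 and −1.71. Against WT the treated group differed by 1.01 (exact permutation test, p = 0.20), and 3 against 3 libraries cannot give a p below 0.10. In such mixtures the ratio can also move with the makeup of cells. The mean log2 CPM of the microglial markers was higher in APP/PS1 than in WT by 1.20. It differed by −0.50 between APP/PS1+N-AS and APP/PS1. The part of cell makeup in the ratio was not tested.

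**Figure D1:**
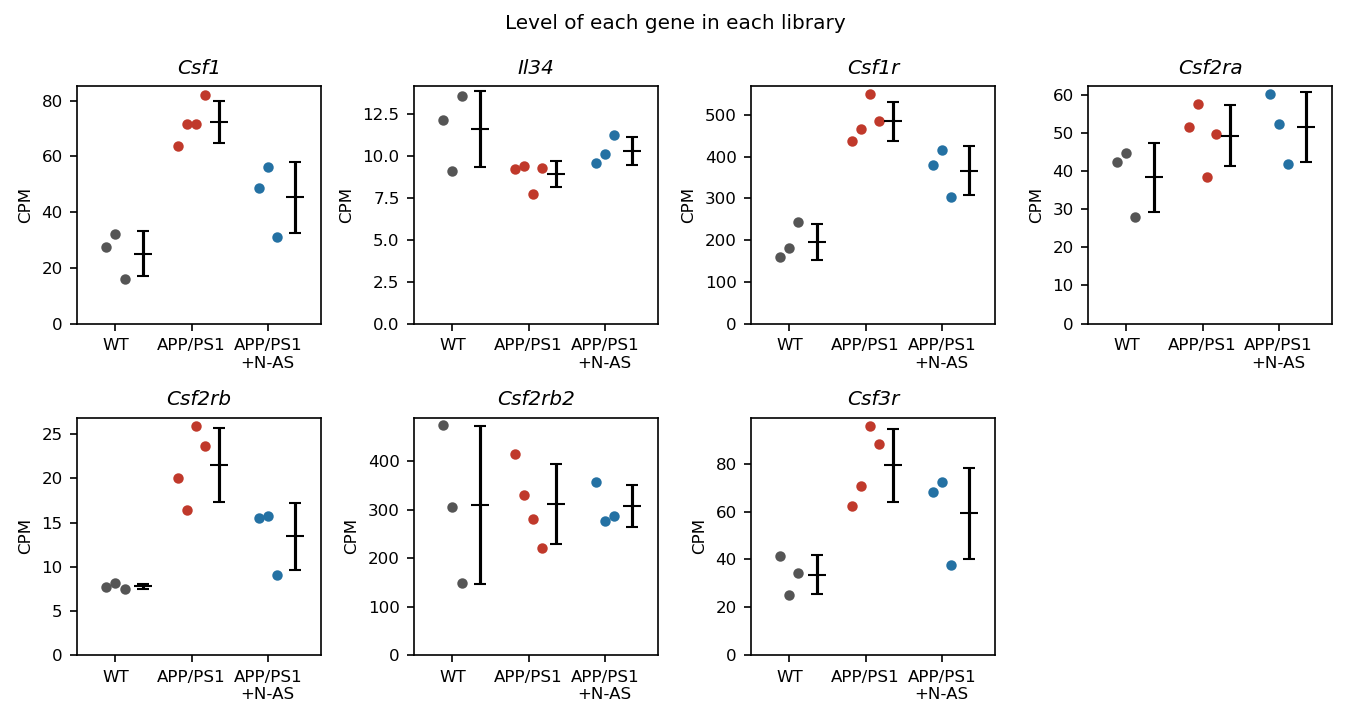
Level of each of the 7 genes in CPM (vertical axis, from 0) in each library of the 3 groups (horizontal axis). Points are libraries, and the bar beside them is the mean with its SD. Csf1, Csf1r, Csf2rb and Csf3r show no overlap between APP/PS1 and WT, whereas Csf2rb2 spans 149 to 474 CPM within WT alone.

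Csf1r, the receptor of both ligands, was at 159, 182 and 243 CPM in WT, at 438, 467, 550 and 485 CPM in APP/PS1, and at 380, 417 and 303 CPM in APP/PS1+N-AS. The 3 groups did not overlap, with the treated libraries between the others. The mean was 194 ± 43.2 CPM (SD, n = 3) for WT, 485 ± 47.6 CPM (SD, n = 4) for APP/PS1, and 367 ± 58.4 CPM (SD, n = 3) for APP/PS1+N-AS. In APP/PS1 it was higher than in WT by 1.32 on the log2 scale (SE 0.19, adjusted p = 0.00475). Among the libraries numbered 1 to 6 this difference was 1.41, and among those numbered 7 to 10 it was 1.09. Hmgxb3 on the other strand overlaps the end of Csf1r by 873 bases, and the same limit applies there.

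Csf2ra, the alpha chain that binds granulocyte-macrophage colony stimulating factor, ranged from 28.0 to 60.3 CPM over the 10 libraries, and the groups overlapped. Its log2 difference between APP/PS1 and WT was 0.36 (SE 0.20, adjusted p = 0.400). Csf2rb, the beta chain shared by the receptors for granulocyte-macrophage colony stimulating factor, interleukin 3 and interleukin 5, was at 7.73, 8.11 and 7.47 CPM in WT, at 20, 16.4, 26.0 and 23.7 CPM in APP/PS1, and at 15.5, 15.7 and 9.01 CPM in APP/PS1+N-AS. The 3 WT libraries lay close together and below all others. Csf2rb rose in APP/PS1 by 1.47 on the log2 scale (SE 0.22, adjusted p = 0.00562).

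Csf2rb2, the mouse beta chain for interleukin 3 alone, was at 474, 304 and 149 CPM in WT, at 415, 330, 280 and 221 CPM in APP/PS1, and at 356, 277 and 287 CPM in APP/PS1+N-AS. Its libraries differed more within a group than between groups. The log2 difference between APP/PS1 and WT was 0.01 (SE 0.34, adjusted p = 0.989). Its raw reads stayed between 3083 and 5406 in all 10 libraries while the total count went from 8805804 to 19432075, and the library with the lowest total, WT replicate 1, had the highest CPM.

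Csf2rb and Csf2rb2 are neighbours on chromosome 15, at chr15:78325752-78353847 on the plus strand and chr15:78282507-78305721 on the minus strand of GRCm38, and are near copies. Over 2628 aligned coding bases of the transcripts Csf2rb-201 and Csf2rb2-201 in GENCODE M21 they were 95.3% identical, with 124 mismatches, and the longest identical run was 242 bases. Of all stretches of 100 bases in the Csf2rb transcript, 7.16% also occur in that of Csf2rb2, and of stretches of 50 bases 18.9% do. A read that lies wholly within a shared stretch cannot by itself be assigned to either gene, and how reads with more than 1 position were handled is not given in the sources used here. The identical coding stretch at chr15:78348577-78348726 (Csf2rb, exon 14, plus strand) and chr15:78284722-78284871 (Csf2rb2, exon 14, minus strand) is shown because no read that lies wholly within it can by itself tell the genes apart. A microRNA gene is annotated inside it in each, Mir7676-2 and Mir7676-1.
Shared by both: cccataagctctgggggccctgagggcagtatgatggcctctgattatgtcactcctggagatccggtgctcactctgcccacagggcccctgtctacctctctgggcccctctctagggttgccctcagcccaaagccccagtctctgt
The stretch of 150 coding bases with the most mismatches, 18, is in exon 4, at chr15:78338802-78338951 in Csf2rb and chr15:78294380-78294529 in Csf2rb2, and shows where reads can be assigned. Capitals mark the bases that differ.
Csf2rb: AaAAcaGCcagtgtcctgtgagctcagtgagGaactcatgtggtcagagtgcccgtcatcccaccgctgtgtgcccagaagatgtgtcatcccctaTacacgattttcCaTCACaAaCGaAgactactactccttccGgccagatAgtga
Csf2rb2: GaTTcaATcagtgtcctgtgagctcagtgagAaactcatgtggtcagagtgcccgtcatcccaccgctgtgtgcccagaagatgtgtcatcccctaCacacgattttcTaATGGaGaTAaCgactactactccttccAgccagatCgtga

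With the reads of both beta chains merged to 1 gene, the log2 difference between APP/PS1 and WT was 0.07 (SE 0.33, adjusted p = 0.937), since Csf2rb2 supplied most of the reads. The call on Csf2rb therefore holds for the reads as the authors assigned them.

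Csf3r, the receptor for granulocyte colony stimulating factor, was at 41.4, 25.1 and 34.1 CPM in WT, at 62.5, 70.7, 95.8 and 88.2 CPM in APP/PS1, and at 68.1, 72.1 and 37.5 CPM in APP/PS1+N-AS. All APP/PS1 libraries were above all WT libraries, and APP/PS1+N-AS replicate 3 lay among the WT values. Csf3r rose in APP/PS1 by 1.25 on the log2 scale (SE 0.26, adjusted p = 0.0257). The call was lost without APP/PS1 replicate 3 (log2 difference 1.16, adjusted p = 0.0718), without APP/PS1 replicate 4 (1.21, adjusted p = 0.0723) and without WT replicate 2 (1.08, adjusted p = 0.0909), with the same direction each time. It was also lost with the replicate number as a block (1.21, adjusted p = 0.0989).

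APP/PS1 replicate 3, the library with the highest Csf3r, also had the highest neutrophil markers. Of 8 such markers 7 were in the files, and their sum was 163 CPM there, against 47.2, 61.6 and 49.6 CPM in the other APP/PS1 libraries and 123, 51.7 and 48.6 CPM in WT. In this library S100a9 was at 38.1 CPM and Ngp at 31.7 CPM, both made by neutrophils. In the other APP/PS1 libraries S100a9 was at 4.40, 3.31 and 1.33 CPM (WT 3.68, 2.66 and 1.35 CPM) and Ngp at 0.777, 0.661 and 0.667 CPM (WT 2.61, 2.04 and 1.21 CPM), within or below the WT range but for S100a9 in replicate 1. In WT replicate 1 most of the sum was Cxcr2, at 111 CPM. Of 6 neutrophil markers tested between APP/PS1 and WT 0 were called by edgeR and 0 were at an unadjusted p under 0.05, while 5 had a positive log2 difference and the median was 1.58. Between APP/PS1+N-AS and APP/PS1 0 were called, 6 of 6 were negative and the median was −0.83. In APP/PS1+N-AS replicates 1 to 3 the sum was 51.1, 55.4 and 57.0 CPM, S100a9 was at 5.40, 8.48 and 2.36 CPM and Ngp at 1.91, 3.45 and 0.517 CPM. For S100a9 and Ngp, APP/PS1+N-AS replicates 1 and 2 were above APP/PS1 replicates 1, 2 and 4. The negative direction of S100a9 and Ngp thus rests on APP/PS1 replicate 3. The part of neutrophil RNA in Csf3r was not tested.

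Levels of different genes are compared per kilobase of exon. As means over the 10 libraries, Csf2rb2 (65.3 CPM per kilobase) and Csf1r (62.7 CPM per kilobase) were the highest. Csf3r (16.5 CPM per kilobase) and Csf2ra (16.3 CPM per kilobase) followed, then Csf1 (9.47 CPM per kilobase), Il34 (5.17 CPM per kilobase) and Csf2rb (2.06 CPM per kilobase). The order within both of these pairs depended on the group. Csf2rb2 was at 65.2 ± 34.3 CPM per kilobase (SD, n = 3) in WT and 65.8 ± 17.3 (SD, n = 4) in APP/PS1, and Csf1r at 33.7 ± 7.48 (SD, n = 3) and 84.0 ± 8.24 (SD, n = 4). Over the 10 libraries the log2 CPM of Csf2rb2 and Csf1r correlated at −0.11, and at −0.72 after group means were removed. The cells from which the Csf2rb2 reads came were not tested. Csf2ra was at 13.4 ± 3.18 CPM per kilobase (SD, n = 3) in WT and 17.2 ± 2.79 (SD, n = 4) in APP/PS1, and Csf3r at 9.29 ± 2.25 (SD, n = 3) and 22 ± 4.26 (SD, n = 4). In WT, Il34 (5.92 ± 1.16 CPM per kilobase, SD, n = 3) and Csf1 (4.76 ± 1.55 CPM per kilobase, SD, n = 3) were within their spread of each other. In APP/PS1 the level of Csf1 was 13.7 ± 1.43 CPM per kilobase (SD, n = 4) and that of Il34 4.55 ± 0.409 CPM per kilobase (SD, n = 4), well apart.

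The second comparison sets the APP/PS1 mice given N-AS beside the other APP/PS1 mice. By edgeR 0 of 7 members, and 0% of all genes tested, were called between APP/PS1+N-AS and APP/PS1. DESeq2 called 79 genes and limma-voom 0, with 0 members in either. The unadjusted p was under 0.05 for 1653 genes (8.83%) and for 2 members, Csf1 and Csf2rb. Without APP/PS1+N-AS replicate 1, edgeR called 1 gene. Between these groups 4 members did not overlap, against 12.7% of all genes tested: Csf1, Csf1r and Csf2rb with the treated libraries lower, and Il34 with them higher.

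The log2 difference between APP/PS1+N-AS and APP/PS1 was −0.67 for Csf1 (SE 0.25, adjusted p = 0.517). For Csf2rb it was −0.68 (SE 0.22, adjusted p = 0.497), for Csf1r −0.40 (SE 0.19, adjusted p = 0.580) and for Csf3r −0.42 (SE 0.25, adjusted p = 0.658). For Il34 it was 0.21 (SE 0.16, adjusted p = 0.748), for Csf2ra 0.06 and for Csf2rb2 −0.02. None of these passed the test, which does not show that the levels were the same. By its own analysis of these libraries, the study names Csf1 among genes lower with N-AS than with vehicle. APP/PS1+N-AS replicate 3 was the lowest treated library for Csf1, Csf1r, Csf2rb and Csf3r. Without it the log2 difference was −0.45 for Csf1, −0.45 for Csf2rb, −0.27 for Csf1r and −0.17 for Csf3r. Among the libraries numbered 1 to 6, 2 against 2, it was −0.37 for Csf1, −0.21 for Csf2rb, −0.18 for Csf1r and 0.08 for Csf3r. Among those numbered 7 to 10, with 1 treated library, it was −1.30 for Csf1, −1.45 for Csf2rb, −0.77 for Csf1r and −1.29 for Csf3r.

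The third comparison sets the treated animals beside WT, and shares its libraries with the other comparisons. By edgeR 0 of 7 members were called between APP/PS1+N-AS and WT, where 35 genes (0.187%) were called in all. DESeq2 called 187 genes, with Csf1r as the single member (adjusted p = 0.00141). limma-voom called 20 genes and 0 members. The unadjusted p was under 0.05 for 1261 genes (6.73%) and for 4 members, Csf1, Csf1r, Csf2rb and Csf3r, each with the higher mean in the treated libraries. Without overlap were 8.81% of all genes and 2 members, Csf1r and Csf2rb. The log2 difference was 0.92 for Csf1r (SE 0.20, adjusted p = 0.163), 0.85 for Csf1 (SE 0.26, adjusted p = 0.457), 0.83 for Csf3r (SE 0.27, adjusted p = 0.508) and 0.79 for Csf2rb (SE 0.23, adjusted p = 0.404). Without APP/PS1+N-AS replicate 3 it was 1.06 for Csf1r, 1.09 for Csf1, 1.10 for Csf3r and 1.03 for Csf2rb, still with 0 members called, while the genes called numbered 116. That number was 15 without APP/PS1 replicate 2, 23 without APP/PS1 replicate 4, 3 without APP/PS1+N-AS replicate 1, 2 without APP/PS1+N-AS replicate 2, 5 without WT replicate 1, 1 without WT replicate 2 and 57 without WT replicate 3.

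**Figure D2:**
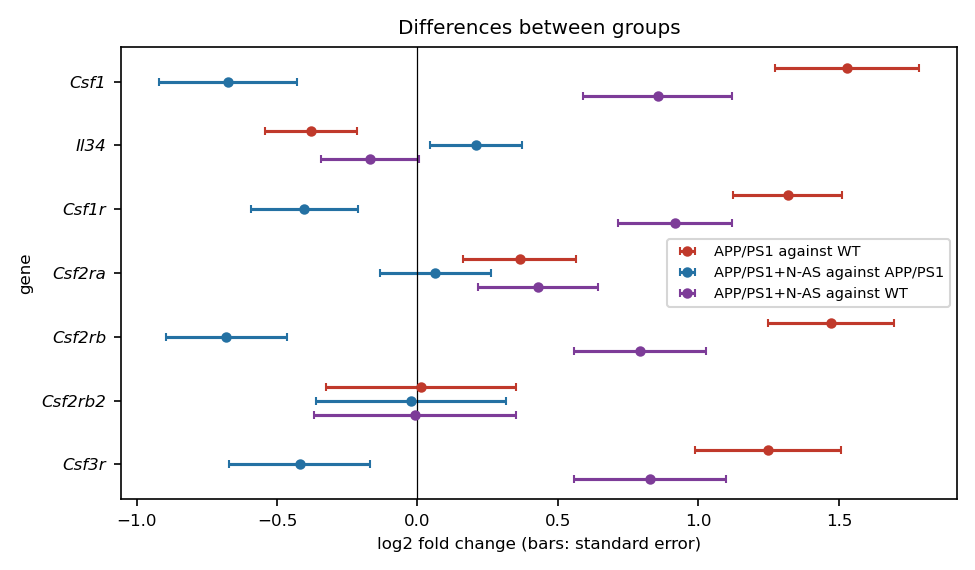
Log2 fold change (horizontal axis) of each gene (vertical axis) in the 3 comparisons, from edgeR, with the standard error as a bar. Csf1, Csf1r, Csf2rb and Csf3r lie at 1.25 to 1.53 between APP/PS1 and WT, and Csf2rb2 lies near 0 in all 3.

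Microglial markers also differed between APP/PS1 and WT. Of the 14 markers 10 rose in APP/PS1 against WT and 0 fell, whereas 2.67% of all genes tested rose. Their median log2 difference was 1.29, against −0.07 over all genes tested. Itgam rose by 1.20, whereas P2ry12 (0.36, adjusted p = 0.377) and Tmem119 (0.50, adjusted p = 0.181) did not pass the test. Between APP/PS1+N-AS and APP/PS1 the median of the markers was −0.53, with 0 of 14 called by edgeR and 8 at an unadjusted p under 0.05. Between APP/PS1+N-AS and WT it was 0.69, with 0 called and 10 at that unadjusted p. The shares of all genes at that unadjusted p were 8.83% and 6.73%.

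Each member was therefore also expressed relative to the mean log2 CPM of the 14 markers in its own library. On that scale Csf1r was 0.14 higher in APP/PS1 than in WT (two-sided exact permutation test, p = 0.0286, adjusted over 21 tests p = 0.20). With only 3 of the 14 markers the difference was −0.28, the opposite direction, and those of Csf1 (−0.04), Csf2rb (−0.18) and Csf3r (−0.37) turned too. With all 14, Csf1 differed by 0.37 (exact permutation test, adjusted p = 0.675), or by −0.07 without WT replicate 3, Csf2rb by 0.23 (exact permutation test, adjusted p = 0.554) and Csf3r by 0.05 (exact permutation test, adjusted p = 0.945). Among the libraries numbered 1 to 6 these differences were −0.10 for Csf1, −0.10 for Csf2rb and −0.25 for Csf3r, and among those numbered 7 to 10 they were 1.28, 0.75 and 0.46. Relative to the markers, Il34 was lower in APP/PS1 than in WT, with a log2 difference of −1.56 and no overlap (exact permutation test, p = 0.0286, adjusted p = 0.20). Most of that difference is the marker mean itself, which was higher by 1.20, while Il34 alone differed by −0.38 with overlap. Also relative to the markers, Csf2ra differed between APP/PS1 and WT by −0.82 (exact permutation test, adjusted p = 0.267) and Csf2rb2 by −1.07 (exact permutation test, adjusted p = 0.30), both with overlap. Between APP/PS1+N-AS and APP/PS1 the marker mean differed by −0.50. Relative to it the differences were 0.71 for Il34 and 0.56 for Csf2ra, both without overlap. They were 0.51 for Csf2rb2, 0.09 for Csf1r, 0.04 for Csf3r, −0.21 for Csf1 and −0.20 for Csf2rb, all with overlap. None of the 21 tests passed after adjustment. The smallest p that 4 against 3 libraries allow is 0.0286, which no single member can bring under 0.05 after this adjustment.

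**Figure D3:**
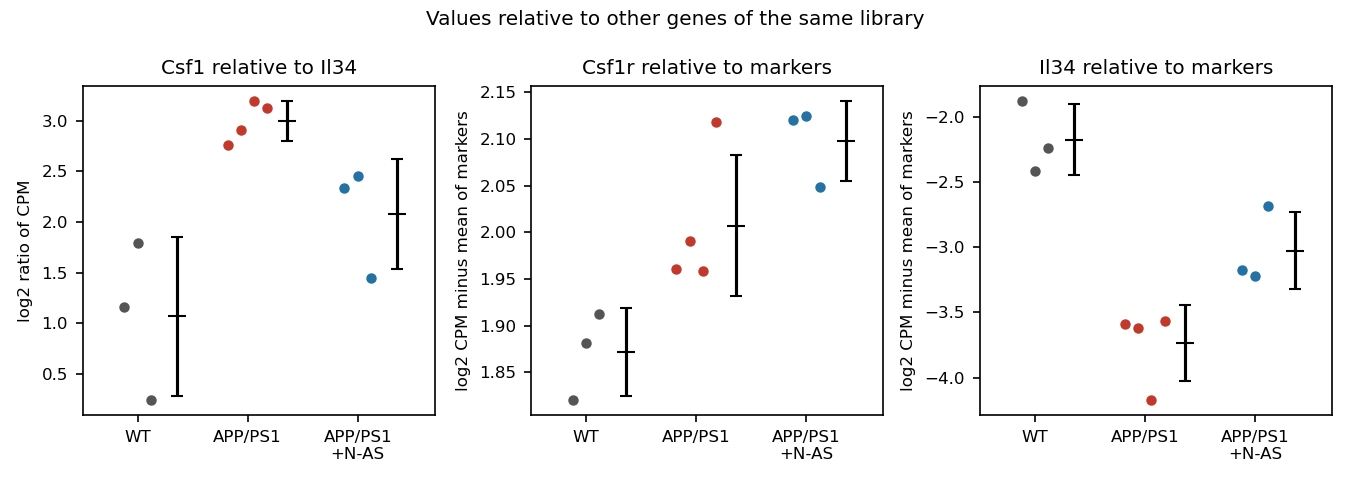
Log2 values within each library (vertical axes, not starting at 0) by group: Csf1 relative to Il34, and Csf1r and Il34 relative to the mean of 14 microglial markers. Points are libraries, and bars are the mean with its SD. The Csf1 to Il34 ratio is between 2.76 and 3.19 in APP/PS1 and between 0.24 and 1.80 in WT, whereas Csf1r relative to the markers spans a narrow range.

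Genes linked to signalling of the CSF1 receptor were taken as a list of 28, all of which were tested. The list also holds Trem2, a receptor of its own, and its counts do not measure activity of the CSF1 receptor. In APP/PS1 against WT 2.67% of all genes tested rose, as did 10 of the 14 microglial markers, which had a median log2 difference of 1.29. Of the 28, 12 rose and 0 fell, with a median log2 difference of 0.82. The lowest p-values belonged to Tyrobp, an adaptor with an activation motif (3.40, SE 0.28, adjusted p = 0.000379), Trem2, a receptor that signals through Tyrobp (3.36, SE 0.29, adjusted p = 0.000379), Vav1, a signalling protein of blood cells (1.34, SE 0.16, adjusted p = 0.00140), and Pik3cg, a catalytic chain of phosphoinositide 3-kinase (1.21, SE 0.15, adjusted p = 0.00188). Against APP/PS1 the treated libraries had 0 of 28 called by edgeR and 12 at an unadjusted p under 0.05 (8.83% of all genes). The median was −0.38, the lowest p being that of Trem2 (−1.20, adjusted p = 0.478), and the microglial markers had a median of −0.53. Against WT the treated libraries had 2 called (0.187% of all genes), Tyrobp (2.33, adjusted p = 0.0160) and Trem2 (2.15, adjusted p = 0.0187). The median of the 28 was 0.43 there, and that of the microglial markers 0.69.

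Of all genes tested 2.67% rose in APP/PS1 against WT. Of 10 transcription factors known to act on Csf1r or on myeloid genes, 4 rose and 0 fell, with a median of 0.54. They were Spi1, the myeloid factor PU.1 (1.48, adjusted p = 0.00427), Cebpa (1.84, adjusted p = 0.00685), Irf8 (1.66, adjusted p = 0.0134) and Runx1 (0.66, adjusted p = 0.0304). In the treated libraries 0 of the 10 were called by edgeR, against APP/PS1 (1 at an unadjusted p under 0.05, median −0.25) or against WT (6 at that unadjusted p, median 0.61). The shares of all genes at that unadjusted p were 8.83% and 6.73%. Of the 16 genes downstream of the other receptors, JAK kinases, STAT factors and their targets, 1 rose in APP/PS1 against WT, against 2.67% of all genes. It was the cytokine gene Osm (2.59, SE 0.41, adjusted p = 0.00679). The median of the 16 was 0.33, and 3 of them were at an unadjusted p under 0.05, near the share of 17.2% over all genes. Of the 16, the treated libraries had 0 called by edgeR, against APP/PS1 (0 at an unadjusted p under 0.05, median −0.13) or against WT (1 at that unadjusted p, median 0.20).

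The ligands of the granulocyte-macrophage, granulocyte and interleukin receptors were close to the limit of detection. Csf2 had at most 8 reads in a library, Csf3 at most 26, Il3 at most 3 and Il5 at most 13, and none passed the filter. Of the 8 further ligands and receptors on the list 4 were tested, Il3ra, Il5ra, Ptprz1 and Sdc1, with 0 called by edgeR in any comparison and 0 at an unadjusted p under 0.05. Ptprz1, which also binds interleukin 34, differed by 0.06 between APP/PS1 and WT (adjusted p = 0.918).

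The markers of other cells were counted in the same fit. In APP/PS1 against WT 3.47% of all genes tested were called in either direction. There 3 of 10 oligodendrocyte markers fell (Cnp, Ermn and Opalin), with a median of −1.35, and 1 of 10 astrocyte markers rose, Gfap, by 5.65 (adjusted p = 0.000545). For neurons (10 tested), oligodendrocyte precursors (5), endothelial cells (8), mural cells (5), border macrophages (7), monocytes (5), neutrophils (6) and lymphocytes (6) the count was 0. Of these lists, Gfap was the single marker called in APP/PS1+N-AS against WT (3.98, adjusted p = 0.0187), and in the comparison of APP/PS1+N-AS with APP/PS1 no marker was called. Between APP/PS1 and WT the log2 difference of Cnp was −1.68 among the libraries numbered 1 to 6 and −1.09 among those numbered 7 to 10. That of Ermn was −1.45 and −1.25, and that of Opalin −1.99 and −2.16. The median of the astrocyte markers was −0.05. Between APP/PS1+N-AS and APP/PS1, 10 of 10 oligodendrocyte markers had a positive difference (median 0.51). All 5 monocyte markers (median −0.91) and all 6 lymphocyte markers (median −0.43) had a negative one. Between APP/PS1+N-AS and WT, 10 of 10 oligodendrocyte markers were negative (median −0.81). The part of oligodendrocyte and astrocyte RNA in Csf1, which glia make, was not tested.

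Likeness to other genes was measured by Pearson's r of log2 CPM over the 10 libraries, among 10823 genes of at least 10 CPM, as a description. The genes of a pair are measured in the same libraries, with the same depth, cell makeup and groups. Most like Csf1r were Lgmn (0.995), Itgb2 (0.993), Rgs10 (0.993), Il10ra (0.992) and Tgfbr1 (0.990). Most like Csf1 were Rps4x (0.992), Ftl1 (0.990), Tcn2 (0.990), Cd9 (0.989) and Rpl37a (0.989). Most like Il34 were Fsd1l (0.945), Tbc1d24 (0.945), Zfp667 (0.943), Dzank1 (0.916) and 3632451O06Rik (0.910). Csf2rb2 was added after its values were seen, and most like it were AW549542 (0.995), 9330159F19Rik (0.991) and Smyd3 (0.990).

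Of the 7 members 4 had an entry in a RefSeq table of promoters (GRCm38.p6), Csf1, Csf3r, Csf2rb2 and Csf2ra. The 250 bases before the start were searched on both strands for GAGGAA, the core of the PU.1 motif, and for TGANTCA, the AP-1 motif, because Spi1 rose in the comparison in which some members rose. Both motifs were chosen after the values were seen. GAGGAA was in 3 of the 4 and in 23.3% of all 32851 promoters, and TGANTCA was in 0 of the 4 and in 6.75% of all. By gene there were 0 matches to GAGGAA in Csf1, 1 in Csf3r, 1 in Csf2rb2 and 2 in Csf2ra, so the letters occurred in a gene that was called and in genes that were not. The windows of Csf3r and Csf2ra reach into their GENCODE transcripts. The other windows, of Csf1 at chr3:107760470-107760719 (minus strand) and Csf2rb2 at chr15:78305722-78305971 (minus strand), are shown as examples without and with the letters. Capitals mark matches to GAGGAA on either strand, which describe letters and not binding.
Csf1: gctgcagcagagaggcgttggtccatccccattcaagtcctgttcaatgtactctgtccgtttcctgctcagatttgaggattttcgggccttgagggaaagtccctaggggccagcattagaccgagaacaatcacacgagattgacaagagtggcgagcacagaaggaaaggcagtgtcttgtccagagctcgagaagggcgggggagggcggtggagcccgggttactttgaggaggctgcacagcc
Csf2rb2: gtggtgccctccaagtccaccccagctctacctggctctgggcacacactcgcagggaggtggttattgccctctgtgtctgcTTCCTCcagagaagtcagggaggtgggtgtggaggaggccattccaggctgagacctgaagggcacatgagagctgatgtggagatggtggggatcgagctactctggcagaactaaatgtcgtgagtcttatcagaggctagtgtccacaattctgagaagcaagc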

How the data were processed

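The authors aligned paired reads with TopHat to mm10, per the labels, counted reads over transcripts with bedtools and Bioconductor, and deposited raw counts per gene symbol. Libraries were stranded, but annotation, use of the strand, handling of reads with several positions and versions are not given in the sources used here. Lines sharing a symbol were summed (103 lines, 43 symbols). In edgeR 4.0.16 (R 4.3.3), filterByExpr, TMM factors, estimateDisp, glmQLFit and glmQLFTest were run on all 10 libraries, 3 groups and no covariate, and p-values were adjusted by Benjamini-Hochberg over 18727 genes (threshold 0.05). Standard errors were taken from the fold change and its F value. Gene models and lengths came from GENCODE M21. Ratios and values relative to markers were compared between groups of libraries by exact permutation, two-sided. Results were also computed with DESeq2 1.42.0, with limma 3.58.1 (voom, quantile normalization), with other scalings, filters and covariates, and leaving out each library. The members and lists were chosen with earlier results of these data known. Named genes were the members, the 4 lowest p-values of a pathway list, cell type markers, sex-linked checks and the 5 genes most like Csf1, Il34 and Csf1r; other genes were chosen after their values were seen, as were the motifs. Replicate numbers come from the labels. After group means were removed, same-numbered libraries correlated at 0.278, 0.142 and 0.309 between APP/PS1+N-AS and APP/PS1, so these groups were also compared as pairs. In these groups replicate 1 with 2 and replicate 2 with 1 correlated at 0.197 and 0.173. This likeness may therefore follow the set of library numbers as much as the replicate number, and a pairing is not established. Same-numbered libraries correlated at −0.485, 0.441 and −0.00962 between APP/PS1 and WT, and at −0.136, 0.348 and 0.240 between APP/PS1+N-AS and WT.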

Additional observations from a re-analysis of the deposited data

Results flagged for a closer look

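In APP/PS1, the group with 4 libraries, 3 of 15 values tested had a library far from the others, by the gap to its nearest neighbour over the range of the group, above Dixon's critical value for 4 libraries. For Il34 CPM this share was 0.891, with replicate 3 lowest at 7.72 CPM. For Il34 relative to the microglial markers it was 0.915, again with replicate 3 lowest, and for Csf2ra relative to the markers it was 0.835. Chance marks about 1 in 20 groups, and the values share libraries and markers.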

How the results depend on the processing

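Csf1, Csf1r and Csf2rb kept their calls in APP/PS1 against WT under each alternative run that kept them as separate genes, including each of the 10 libraries left out. Merged with Csf2rb2, Csf2rb was not called (0.07, edgeR adjusted p = 0.937). Csf3r kept its call in 7 of those 10 and its direction in all, with log2 differences from 1.08 to 1.42. Without 1 library, Csf2rb2 ranged from −0.30 to 0.46 in APP/PS1 against WT, from −0.16 to 0.15 in APP/PS1+N-AS against APP/PS1 and from −0.33 to 0.44 in APP/PS1+N-AS against WT, and Csf2ra from −0.0618 to 0.20 in APP/PS1+N-AS against APP/PS1. In APP/PS1 against WT Csf2ra ranged from 0.19 to 0.50 and Il34 from −0.52 to −0.23, never called. The Csf1 to Il34 ratio ranged from 1.52 to 2.29 in APP/PS1 against WT and from −1.11 to −0.61 in APP/PS1+N-AS against APP/PS1, with no call left, through fewer arrangements or, for libraries outside the groups compared, through the adjustment alone. Over same-numbered pairs of APP/PS1+N-AS and APP/PS1 its difference was −0.88 (exact paired permutation test, p = 0.25, the smallest possible). Genes called ranged from 299 to 923 in APP/PS1 against WT, from 0 to 1 in APP/PS1+N-AS against APP/PS1 and from 1 to 116 in APP/PS1+N-AS against WT.

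Relative to the 14 markers, and without 1 library, Csf1 ranged from −0.0705 to 0.62 in APP/PS1 against WT and from −0.28 to 0.41 in APP/PS1+N-AS against WT, and Csf2rb from 0.0568 to 0.34 in APP/PS1 against WT and from −0.14 to 0.19 in APP/PS1+N-AS against WT. Csf3r ranged from −0.10 to 0.32 in APP/PS1 against WT, from −0.0643 to 0.24 in APP/PS1+N-AS against APP/PS1 and from −0.0576 to 0.36 in APP/PS1+N-AS against WT. With 3 markers only, the direction turned in APP/PS1 against WT for Csf1 (−0.0413), Csf1r (−0.28), Csf2rb (−0.18) and Csf3r (−0.37), and in APP/PS1+N-AS against WT for Csf1 (−0.0692), Csf1r (−0.00355), Csf2rb (−0.19) and Csf3r (−0.14).

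Among the libraries numbered 1 to 6, the values relative to markers were −0.0973 for Csf1, −0.10 for Csf2rb and −0.25 for Csf3r in APP/PS1 against WT, and 0.11 for Csf2rb, 0.41 for Csf3r and 0.40 for Il34 in APP/PS1+N-AS against APP/PS1. Among those numbered 7 to 10 they were 1.28 for Csf1, 0.75 for Csf2rb and 0.46 for Csf3r in APP/PS1 against WT. In APP/PS1+N-AS against APP/PS1 they were −0.52 for Csf1, 0.0107 for Csf1r, −0.67 for Csf2rb, 0.98 for Csf2rb2, −0.51 for Csf3r and 1.18 for Il34. In APP/PS1+N-AS against WT they were 0.14 for Csf1r, 0.40 for Csf2ra, 0.76 for Csf2rb2 and −0.45 for Il34. Over all libraries these were 0.23, −0.26, −0.56 and −0.85, so the direction turned for Csf2ra and Csf2rb2. Among the libraries numbered 7 to 10 the ratio was 2.92 in APP/PS1 against WT and −1.71 in APP/PS1+N-AS against APP/PS1. Among those numbered 1 to 6 it was 1.36 and −0.44.

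DESeq2 called 1362, 79 and 187 genes in the order used above, and 1 member in APP/PS1+N-AS against WT, Csf1r (0.91). With a replicate block, which treats same-numbered libraries as paired, 326 genes were called in APP/PS1 against WT and 5 in APP/PS1+N-AS against WT, Csf3r was at 1.21 and not called in APP/PS1 against WT, Csf2rb2 was at 0.11 in APP/PS1+N-AS against WT, and 0 members were called in APP/PS1+N-AS against APP/PS1, as without it. The set of library numbers as covariate gave 1055 and 64 genes in the comparisons with WT, −0.0177 for Csf2ra in APP/PS1+N-AS against APP/PS1 and 0.10 for Csf2rb2 in APP/PS1+N-AS against WT. With only the 2 groups compared, 410 and 2 genes were called against WT, and limma-voom called 20 in APP/PS1+N-AS against WT. Csf2rb2 in APP/PS1+N-AS against WT was 0.10 with voom, 0.00776 with total counts only and 0.0283 with a filter of 1 read, and in APP/PS1 against WT −0.0025 with a filter of 10 reads in every library. Beyond the number of libraries and the adjustment, the cause was not tested.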
